A study of Arabidopsis thaliana with 24 samples.

Results

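The 32 genes described here encode the enzymes that make heme, bilins and chlorophyll from glutamyl-tRNA, with the regulators that act on their first step, in root tips of Arabidopsis thaliana. They were taken by locus identifier from a list of 32 genes, and all 32 were among the 24497 genes of the deposited table. The list holds 12 genes of the shared trunk, 5 of the heme and bilin branch, 13 of the chlorophyll branch and 2 regulators of glutamyl-tRNA reductase. Poly(A) RNA was sequenced from 24 libraries in 8 groups of 3 biological replicates. The groups crossed 4 genotypes, gun1-101, nac103-11, NAC103-OX (35S:NAC103-GFP) and WT (labelled Col), with spectinomycin at 10 mg/L or control medium. GUN1 is a plastid pentatricopeptide repeat protein of retrograde signalling, and NAC103 is a transcription factor of the NAC family, which the 35S promoter drives in most cell types. Spectinomycin blocks translation on plastid ribosomes. All seedlings were about 5 days old, grew on sucrose under 16 h of light a day, and gave root tips about 0.5 cm long. The time on spectinomycin is given as 16 h in one label and as 24 h in another, and this was not resolved.

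All tetrapyrroles of a plant cell start from 5-aminolevulinic acid, which plastids make from glutamyl-tRNA, and run through one trunk to protoporphyrin IX. There the path divides: ferrochelatase inserts iron and gives heme, whereas Mg-chelatase inserts magnesium and opens the way to chlorophyll. Heme oxygenase opens part of the heme into biliverdin, from which the phytochrome chromophore is made, and siroheme leaves the trunk earlier. Several of the classical genomes uncoupled loci, GUN2 to GUN5, are genes of this pathway (HO1, HY2, GUN4 and CHLH), and heme and Mg-porphyrins have long been studied as candidate signals between plastid and nucleus. Roots make little chlorophyll but need heme for respiration, peroxidases and cytochromes P450.

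Expected counts assigned to genes summed to between 14303942 and 17411876 per library on spectinomycin and between 13012580 and 17059084 on control medium. GUN1 had 82.0, 81.6 and 93.8 CPM (counts scaled to library size by TMM) in gun1-101 and 150.1, 149.9 and 144 CPM in WT on control medium, so its transcript was lower in the mutant but present. NAC103 had 17.9, 16.6 and 17.6 CPM in NAC103-OX and 0.733, 0.917 and 0.641 CPM in WT on control medium. In nac103-11 it had 0.533, 0.541 and 0.777 CPM on control medium, which was not called different from WT by edgeR (adjusted p = 0.515). On spectinomycin NAC103 had 0.129, 0 and 0.113 CPM in nac103-11 and 0.568, 0.515 and 0.591 CPM in WT (log2 fold change -2.72 ± 0.53, adjusted p = 9.41e-05). A library stood apart: WT control replicate 2 differed from the other WT control libraries by a chi-square per degree of freedom of 8.9 and 9.02, against 1.81 between those. Its 8 green leaf markers summed to 472.6 TPM (the authors' level scaled to transcript length and library size), against 207.6 and 211.6 TPM in the other WT control libraries, and counts of members that use the WT control libraries are given with and without it. Over the other groups that sum ran from 337.4 to 552.5 TPM on spectinomycin and from 208.9 to 441.6 TPM on control medium. Among these markers, CA1 was close to 0, whereas RBCS1A, RCA, CAB1 and LHCB3 were not. Markers of shoot apex, stomata and trichomes were at or near 0 in all libraries, and the 9 root tip markers summed to between 134 and 201 TPM. In such bulk samples, fewer cells of a type and less RNA per cell cannot be told apart.

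Per length, HO1 and FC1 of the heme and bilin branch had the highest levels, and the 5 lowest members all belonged to the chlorophyll branch. The heme oxygenase HO1 (AT2G26670, GUN2) led with a mean of 116 TPM over the 8 groups and a range of 88.2 to 150.1 TPM over libraries. Next came the ferrochelatase FC1 (AT5G26030) at 71.7 TPM, the Mg-protoporphyrin IX methyltransferase CHLM (AT4G25080) at 62.3 TPM and the 5-aminolevulinic acid dehydratase HEMB1 (AT1G69740) at 58.6 TPM. FLU (AT3G14110), the negative regulator of glutamyl-tRNA reductase, followed at 56.2 TPM. At the low end stood the Mg-chelatase activator GUN4 (AT3G59400) at 2.12 TPM, the divinyl reductase DVR (AT5G18660) at 1.37 TPM, the Mg-chelatase subunit CHLI2 (AT5G45930) at 1.04 TPM and the protochlorophyllide oxidoreductase PORC (AT1G03630) at 0.985 TPM. PORA (AT5G54190), the oxidoreductase of etiolated seedlings, had a single count in 3 of 24 libraries and none in the others, where a count of 0 allows up to 3, and it was the sole member too low to be tested. Neighbours in this order were rarely separate: the ranges over 24 libraries overlapped for 29 of 31 neighbouring pairs, and were apart only between FC2 and HY2 and between PORC and PORA. The authors' FPKM gave the same rank to all 32 genes.

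In WT, genes of the chlorophyll branch were higher on spectinomycin, and a few genes of the trunk and the heme branch were lower. By edgeR's quasi-likelihood test at an adjusted p of 0.05, 16 of 31 tested members were called, 10 higher and 6 lower on spectinomycin. That is 51.6% of the members, beside 40.6% of all 19567 genes tested (20.1% higher and 20.4% lower). In the chlorophyll branch 9 of 12 tested genes rose and none fell, with a median log2 fold change of 0.65, whereas the median over all genes was 0.033. In the trunk 1 of 12 rose and 5 fell, and in the heme and bilin branch none rose and 1 of 5 fell. Of the regulators, neither FLU (0.087 ± 0.062) nor GBP (AT3G21200, 0.032 ± 0.067), which binds glutamyl-tRNA reductase and protects it, was called. Without WT control replicate 2, 19 members were called (14 higher and 5 lower), and the chlorophyll branch had 11 higher genes and a median of 0.73. The trunk then had 2 higher and 4 lower genes, and the heme and bilin branch 1 higher and 1 lower. With raw library totals in place of TMM, 18 members were higher and 5 lower. The green leaf markers moved with the chlorophyll branch, 7 of 8 being higher and 1 lower on spectinomycin, and summed to 545, 530.3 and 552 TPM on spectinomycin against 208, 473 and 212 TPM on control medium. Their part in these results was not tested.

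**Figure D1:**
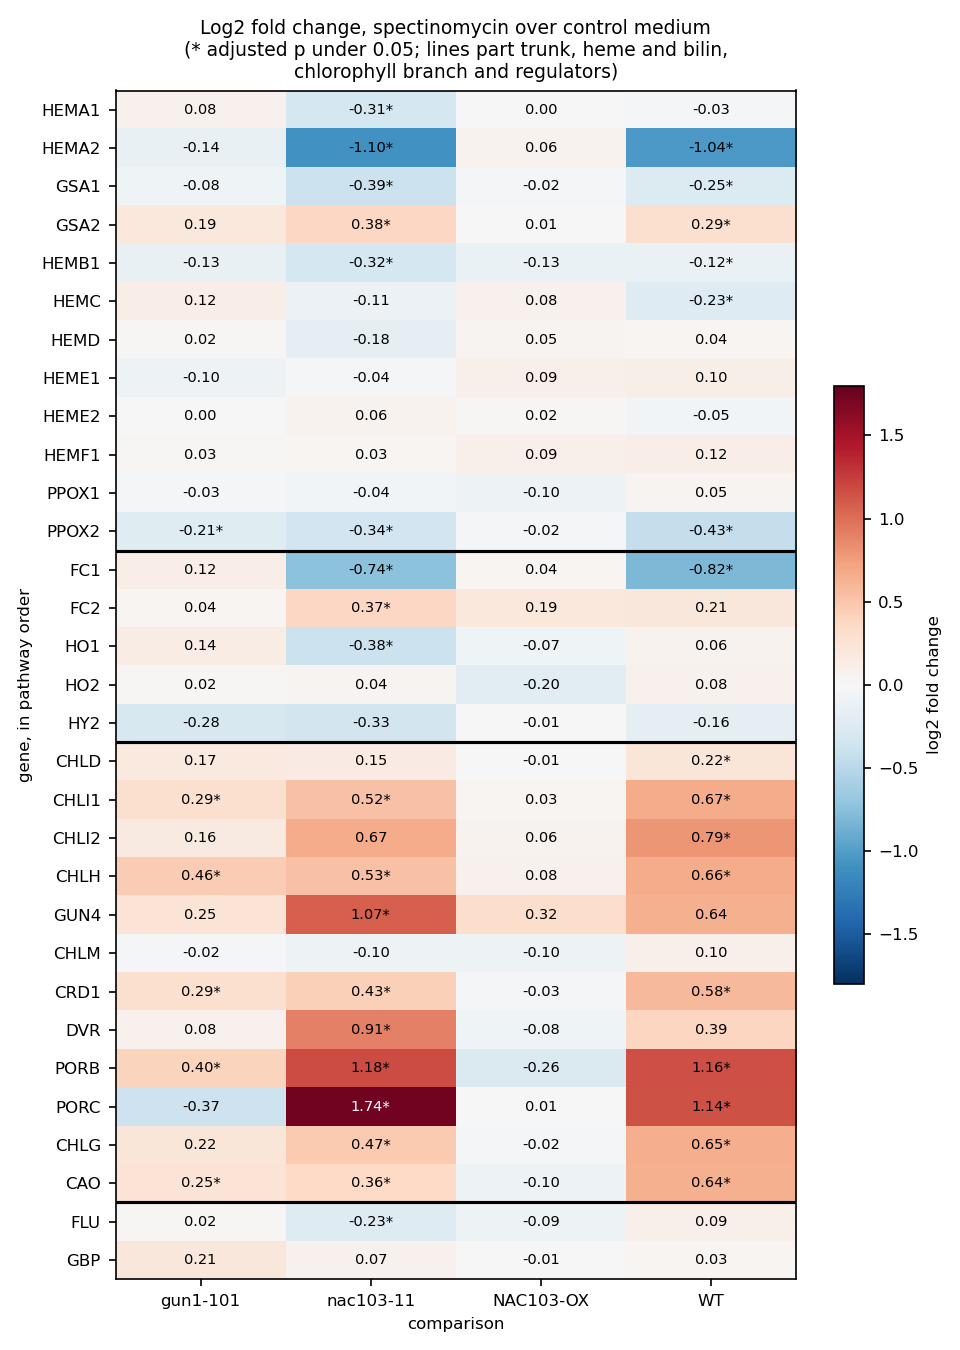
Log2 fold changes of the 31 tested genes (rows, in pathway order) on spectinomycin over control medium in gun1-101, nac103-11, NAC103-OX and WT (columns), in red where higher and blue where lower, with an asterisk where the adjusted p was under 0.05. PORB reached 1.18 in nac103-11 and 1.16 in WT, HEMA2 stood at -1.10 and -1.04 in the same genotypes, and the NAC103-OX column holds no asterisk.

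The trunk opens with glutamyl-tRNA reductase, the step that limits the flow into the pathway. Its HEMA2 gene (AT1G09940), the form known from roots and other non-green tissue, had 22.5, 22.1 and 17.9 CPM in WT on spectinomycin and 42.5, 48.3 and 36.6 CPM in WT on control medium (n = 3 each). All treated libraries lay below all untreated ones (log2 fold change -1.04 ± 0.074 SE, adjusted p = 1.14e-15). HEMA1 (AT1G58290), the form of green tissue, had 46.1, 49.5 and 52.0 CPM in WT on spectinomycin and 47.7, 54.3 and 48.5 CPM in WT on control medium. These groups overlapped, and the difference had a 95% interval of -0.14 to 0.086 on the log2 scale. GSA1 (AT5G63570) and GSA2 (AT3G48730) encode the aminotransferase that completes 5-aminolevulinic acid. GSA1 had 50.2, 46.1 and 48.6 CPM in WT on spectinomycin and 57.9, 57.6 and 56.5 CPM in WT on control medium, lower on spectinomycin without overlap (log2 fold change -0.25 ± 0.056, adjusted p = 0.000301). GSA2 had 17.2, 15.8 and 18.0 CPM in WT on spectinomycin and 13.7, 16.6 and 11.2 CPM in WT on control medium, and was higher on spectinomycin (log2 fold change 0.29 ± 0.094, adjusted p = 0.0118, 0.44 without WT control replicate 2). The GSA2 groups overlapped, and the isozymes of this step were called in opposite directions.

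Further along the trunk, the porphobilinogen deaminase HEMC (AT5G08280) had 45.4, 45.8 and 46.0 CPM in WT on spectinomycin and 50.7, 55.9 and 54.4 CPM in WT on control medium and fell (log2 fold change -0.23 ± 0.052, adjusted p = 0.000309). PPOX2 (AT5G14220), a protoporphyrinogen oxidase, had 28.9, 29.7 and 27.5 CPM in WT on spectinomycin and 39.3, 36.4 and 40.3 CPM in WT on control medium. No treated library of PPOX2 reached an untreated one (log2 fold change -0.43 ± 0.063, adjusted p = 2.3e-07). HEMB1 fell least, with 63.3, 66.4 and 61.9 CPM in WT on spectinomycin and 69.2, 71.4 and 67.1 CPM in WT on control medium (fitted log2 fold change -0.12 ± 0.048, adjusted p = 0.046). Calls lost when 1 library was left out were GSA2 without WT control replicate 3 (adjusted p = 0.166) or WT spectinomycin replicate 3 (adjusted p = 0.07), and HEMB1 without WT control replicate 1 or 2 or WT spectinomycin replicate 1 or 3 (adjusted p between 0.0869 and 0.174). The 6 trunk genes not called in WT were HEMA1, the uroporphyrinogen III synthase HEMD, the uroporphyrinogen decarboxylases HEME1 and HEME2, the coproporphyrinogen oxidase HEMF1 and PPOX1, of which HEMF1 was called higher without WT control replicate 2 (0.16, adjusted p = 0.0383), with log2 fold changes between -0.047 and 0.12.

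In the heme branch, FC1, which inserts iron into protoporphyrin IX and is the ferrochelatase known from roots and other non-green tissue, had 65.8, 61.4 and 61.0 CPM in WT on spectinomycin and 109, 108 and 114 CPM in WT on control medium. The treated libraries lay far below the untreated ones (log2 fold change -0.82 ± 0.051, adjusted p = 1.26e-17, -0.83 without WT control replicate 2). FC2 (AT2G30390), the form tied to photosynthetic tissue, had 11.7, 11.7 and 12.6 CPM in WT on spectinomycin and 10.0, 11.4 and 9.69 CPM in WT on control medium. FC2 was not called (log2 fold change 0.21 ± 0.095, adjusted p = 0.0763), and its difference had a 95% interval of 0.017 to 0.40. FC2 was called higher without WT control replicate 2 (0.29, adjusted p = 0.0269). HO1, which turns heme into biliverdin, had 84.7, 83.1 and 81.9 CPM in WT on spectinomycin and 78.5, 79.5 and 80.8 CPM in WT on control medium and was not called (log2 fold change 0.064 ± 0.053, adjusted p = 0.353). Its relative HO2 (AT2G26550) had 13.6, 9.38 and 10.2 CPM in WT on spectinomycin and 11.0, 10.7 and 9.48 CPM in WT on control medium, and the phytochromobilin synthase HY2 (AT3G09150, GUN3) averaged 3.27 ± 0.0974 CPM on spectinomycin and 3.64 ± 0.655 CPM on control medium (SD, n = 3 each). Neither was called, at log2 fold changes of 0.078 ± 0.11 and -0.16 ± 0.17. With all libraries, FC1 was the 1 gene of the branch that passed the test in WT.

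The chlorophyll branch begins with Mg-chelatase. Its H subunit CHLH (AT5G13630, GUN5) had 52.0, 50.5 and 51.1 CPM in WT on spectinomycin and 32.1, 33.9 and 30.7 CPM in WT on control medium. All treated libraries were higher than all untreated ones (log2 fold change 0.66 ± 0.056, adjusted p = 1.57e-13, 0.70 without WT control replicate 2). CHLI1 (AT4G18480), the main I subunit, had 35.5, 35.5 and 33.6 CPM in WT on spectinomycin and 20.02, 24.7 and 20.9 CPM in WT on control medium, again without overlap (log2 fold change 0.67 ± 0.076, adjusted p = 9.5e-10, 0.77 without that library). CHLI2 had 1.52, 1.77 and 1.29 CPM in WT on spectinomycin and 0.366, 1.43 and 0.784 CPM in WT on control medium, a level at which counts are few (log2 fold change 0.79 ± 0.31, adjusted p = 0.0353, 1.43 without that library). The D subunit CHLD (AT1G08520) rose less, with a log2 fold change of 0.22 ± 0.066, adjusted p = 0.00757. Calls not kept on leaving out 1 library were CHLD without WT control replicate 3 (adjusted p = 0.0819) and CHLI2 without WT control replicate 1 or 3 or WT spectinomycin replicate 1 or 2 (adjusted p between 0.0641 and 0.308).

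Most genes of the steps after Mg-chelatase rose too. PORB (AT4G27440), which reduces protochlorophyllide in the light, had 16.1, 15.3 and 14.7 CPM in WT on spectinomycin and 5.56, 8.60 and 6.34 CPM in WT on control medium. All treated libraries lay above all untreated ones (log2 fold change 1.16 ± 0.10, adjusted p = 1.58e-12, 1.37 without WT control replicate 2). PORC had 1.89, 1.66 and 1.34 CPM in WT on spectinomycin and 0.549, 1.204 and 0.356 CPM in WT on control medium, few reads but no overlap (log2 fold change 1.14 ± 0.32, adjusted p = 0.00334, 1.797 without that library). The chlorophyll synthase CHLG (AT3G51820) had 30.1, 27.3 and 25.4 CPM in WT on spectinomycin and 17.2, 19.3 and 16.0 CPM in WT on control medium (fitted log2 fold change 0.65 ± 0.078, adjusted p = 3.28e-09, 0.73 without that library). CAO (AT1G44446), which makes chlorophyll b, had 23.4, 21.0 and 21.9 CPM in WT on spectinomycin and 13.1, 15.7 and 13.6 CPM in WT on control medium (fitted log2 fold change 0.64 ± 0.078, adjusted p = 4.92e-09, 0.73 without it). CRD1 (AT3G56940), a subunit of the cyclase that closes the fifth ring, had 58.3, 60.8 and 56.0 CPM in WT on spectinomycin and 35.8, 45.4 and 35.6 CPM in WT on control medium (fitted log2 fold change 0.58 ± 0.070, adjusted p = 7.87e-09, 0.71 without it). In CHLG, CAO and CRD1 every treated library exceeded every untreated one, and WT control replicate 2 was the highest untreated library in all of them. CHLM, GUN4 and DVR were not called in WT, at log2 fold changes of 0.098 ± 0.060, 0.64 ± 0.27 and 0.39 ± 0.22. GUN4 (1.21, adjusted p = 0.000539) and CHLM (0.20, adjusted p = 0.00647) were called higher without WT control replicate 2.

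CRD1 and CAO were also the members called in WT with all libraries whose upstream sequence holds a G-box, the letters CACGTG, which read the same on both strands and are known from light-regulated promoters. It was searched in the 250 bases before each gene's annotated start in RefSeq TAIR10.1, matched by locus identifier since the authors' build is not given in the sources used here. The stretches are shown 5′ to 3′ on the gene's strand with the motif in capitals, because they are the matches among members that moved in WT. The CRD1 stretch lies at chr3:21076429-21076482 on the plus strand, and the CAO stretch, with a pair of matches, at chr1:16851274-16851347 on the minus strand.
CRD1: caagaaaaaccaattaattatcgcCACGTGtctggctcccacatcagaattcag
CAO: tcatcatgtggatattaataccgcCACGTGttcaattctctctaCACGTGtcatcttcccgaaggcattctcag
The motif began 52 bases before the start of CRD1, and 52 and 32 bases before that of CAO. In all, 5 of 32 members held it (15.6%; HEMD, FC2, HY2, CRD1 and CAO), beside 1658 of 23612 protein-coding genes of the table (7.02%). The letters alone do not show that a factor binds there.

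**Figure D2:**
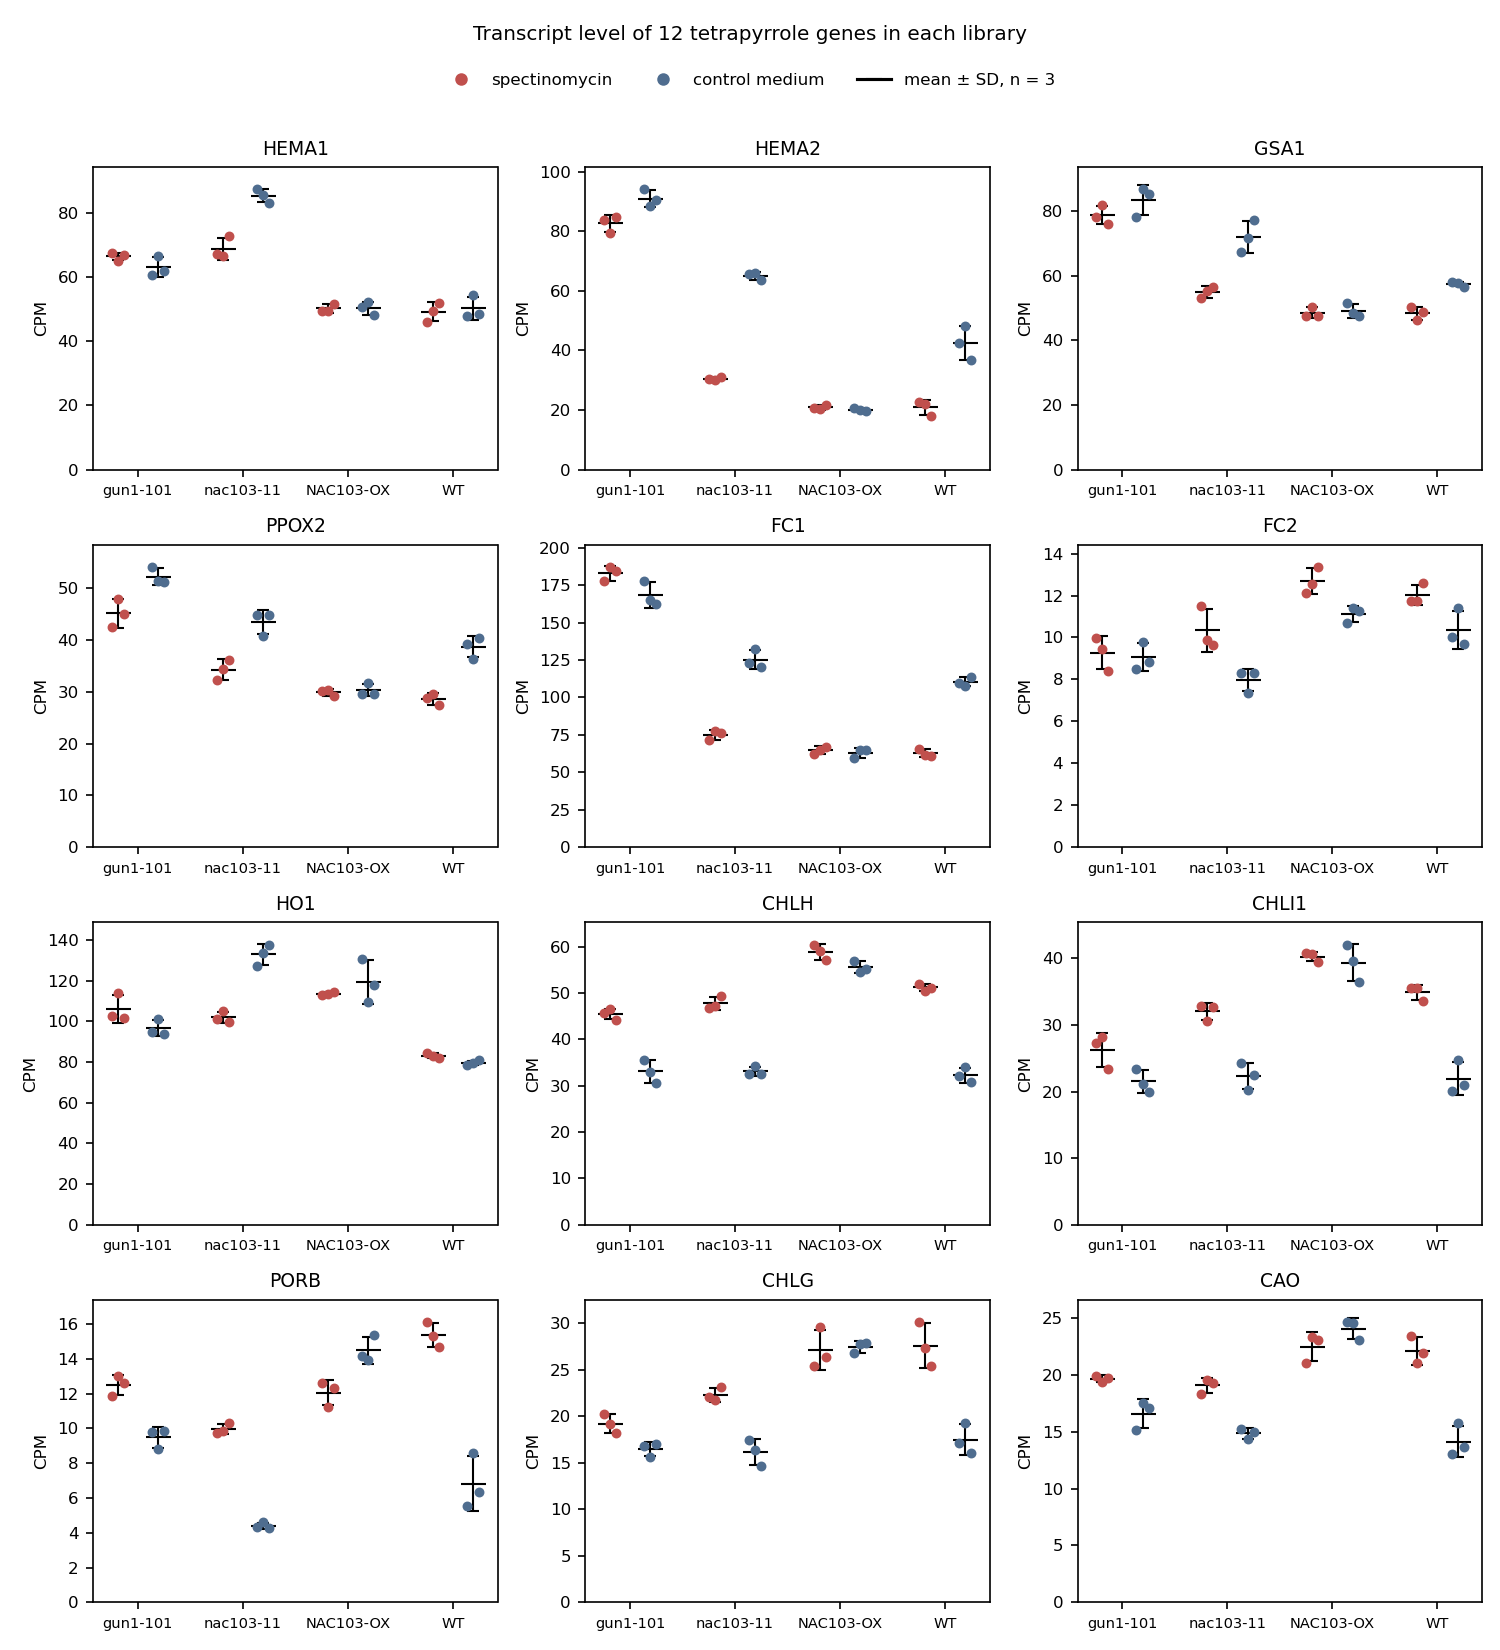
CPM of 12 genes (panels) in each library, with spectinomycin in red and control medium in blue for gun1-101, nac103-11, NAC103-OX and WT, and black marks for the mean ± SD (n = 3). HEMA2 and FC1 sit low on spectinomycin in nac103-11 and WT, low on both media in NAC103-OX and high on both media in gun1-101.

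In gun1-101, fewer genes responded than in WT, among the members as among all genes. Of 31 tested members, 6 were called, 5 higher and 1 lower. Beside them stood 11.2% of all genes tested (3.22% higher and 7.96% lower), against 40.6% in the WT response. The higher genes were all of the chlorophyll branch: CHLH (log2 fold change 0.46 ± 0.059, adjusted p = 1.86e-07), PORB (0.40 ± 0.11, 0.012), CRD1 (0.29 ± 0.071, 0.00485), CHLI1 (0.29 ± 0.085, 0.0196) and CAO (0.25 ± 0.083, 0.0408). The lower gene was PPOX2 (log2 fold change -0.21 ± 0.060, adjusted p = 0.0148). CHLH alone was called under every alternative and every left-out library that was run. The others were lost on leaving out single libraries: PPOX2 without gun1-101 control replicate 1 (adjusted p = 0.0952) or gun1-101 spectinomycin replicate 1 (adjusted p = 0.125); CRD1 without gun1-101 control replicate 3 (adjusted p = 0.0561); PORB without gun1-101 control replicate 2 (adjusted p = 0.0732) or gun1-101 spectinomycin replicate 2 (adjusted p = 0.0594). CHLI1 and CAO were lost in the same way, CHLI1 without gun1-101 control replicate 2 or 3 or gun1-101 spectinomycin replicate 1 or 2 (adjusted p between 0.0678 and 0.133) and CAO without gun1-101 control replicate 1 or 3 or gun1-101 spectinomycin replicate 1, 2 or 3 (adjusted p between 0.0602 and 0.255). With raw library totals, 11 members were higher and 0 lower.

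The response differed from that of WT, by a test of the difference itself, in 9 members (3 with a more positive and 6 with a more negative response), beside 24.5% of all genes tested (13.7% higher and 10.8% lower). Without WT control replicate 2 these were 12, PPOX2 (0.26, adjusted p = 0.022) being added with a more positive response, and CHLH (-0.25, adjusted p = 0.0265) and CHLM (-0.22, adjusted p = 0.0337) with a response more negative than in WT. HEMA2 had 83.8, 79.3 and 84.6 CPM in gun1-101 on spectinomycin and 94.0, 88.4 and 90.4 CPM in gun1-101 on control medium. It stayed above every WT library on both media, and its response was not called in gun1-101 (log2 fold change -0.14 ± 0.062, adjusted p = 0.155), with a difference from the WT response of 0.90 ± 0.097, adjusted p = 4.7e-10. FC1 had 177, 187 and 184 CPM in gun1-101 on spectinomycin and 178, 165 and 162 CPM in gun1-101 on control medium and was not called either (log2 fold change 0.12 ± 0.048, adjusted p = 0.111). Its difference from the WT response was 0.93 ± 0.070, adjusted p = 1.01e-14. HEMC had 69.9, 64.8 and 68.0 CPM in gun1-101 on spectinomycin and 63.3, 59.5 and 64.1 CPM in gun1-101 on control medium, and differed from the WT response by 0.35 ± 0.073, adjusted p = 0.000255.

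All 6 members whose response was more negative in gun1-101 belonged to the chlorophyll branch. PORB had 11.9, 13.03 and 12.6 CPM in gun1-101 on spectinomycin and 9.79, 8.80 and 9.87 CPM in gun1-101 on control medium. It still rose, but by less than in WT (difference -0.76 ± 0.15, adjusted p = 0.000158). PORC had 0.819, 0.823 and 0.826 CPM in gun1-101 on spectinomycin and 0.780, 1.26 and 1.202 CPM in gun1-101 on control medium, and its response was not called (log2 fold change -0.37 ± 0.37, adjusted p = 0.624). The difference from WT was -1.51 ± 0.49, adjusted p = 0.0206 for PORC. CHLG had 20.2, 19.2 and 18.2 CPM in gun1-101 on spectinomycin and 16.8, 15.6 and 17.1 CPM in gun1-101 on control medium, and was not called in gun1-101 (difference -0.43 ± 0.12, adjusted p = 0.00547). CAO had 19.9, 19.3 and 19.7 CPM in gun1-101 on spectinomycin and 15.1, 17.5 and 17.1 CPM in gun1-101 on control medium (difference -0.39 ± 0.11, adjusted p = 0.00974). CHLI1 had 27.2, 28.3 and 23.4 CPM in gun1-101 on spectinomycin and 23.3, 21.2 and 20.001 CPM in gun1-101 on control medium (difference -0.38 ± 0.11, adjusted p = 0.0113). CRD1 had 58.8, 60.5 and 58.8 CPM in gun1-101 on spectinomycin and 48.2, 53.1 and 44.6 CPM in gun1-101 on control medium (difference -0.29 ± 0.10, adjusted p = 0.0285). Differences no longer called without 1 library were CHLI1 without gun1-101 control replicate 1 (adjusted p = 0.0648) or gun1-101 spectinomycin replicate 3 (adjusted p = 0.0538); CRD1 without WT control replicate 1 or 3 or gun1-101 control replicate 2 or WT spectinomycin replicate 2 or gun1-101 spectinomycin replicate 1 or 3 (adjusted p between 0.0544 and 0.117); PORC without WT control replicate 1 or 3 or gun1-101 control replicate 2 or 3 (adjusted p between 0.0539 and 0.0657). The green leaf markers summed to 509, 536 and 520.1 TPM in gun1-101 on spectinomycin and 442, 432 and 442 TPM on control medium.

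In nac103-11 the members responded in numbers like those of WT. Of 31 tested, 19 were called, 11 higher and 8 lower, beside 44.8% of all genes tested (21.4% higher and 23.4% lower), and raw library totals gave 16 higher and 7 lower. The chlorophyll branch held 9 higher genes and no lower gene (median log2 fold change 0.53). The trunk held 1 higher and 5 lower, and the heme and bilin branch 1 higher and 2 lower. HEMA2 had 30.2, 30.0 and 31.0 CPM in nac103-11 on spectinomycin and 65.6, 65.9 and 63.4 CPM in nac103-11 on control medium (fitted log2 fold change -1.10 ± 0.069, adjusted p = 1.4e-17). FC1 had 71.5, 77.5 and 76.1 CPM in nac103-11 on spectinomycin and 123, 133 and 120.2 CPM in nac103-11 on control medium (fitted log2 fold change -0.74 ± 0.050, adjusted p = 1.95e-16). Both lay far lower on spectinomycin, with no overlap. PORB had 9.71, 9.86 and 10.3 CPM in nac103-11 on spectinomycin and 4.34, 4.60 and 4.27 CPM in nac103-11 on control medium (fitted log2 fold change 1.18 ± 0.13, adjusted p = 1.22e-10), and PORC rose by 1.74 ± 0.38 on the log2 scale. GUN4 and DVR, not called in WT, were higher in nac103-11 (log2 fold change 1.07 ± 0.35, adjusted p = 0.0112 for GUN4, and 0.91 ± 0.27, adjusted p = 0.00526 for DVR), and the difference from WT was not called for either (adjusted p = 0.624 and 0.401). The green leaf markers summed to 392, 424 and 394 TPM in nac103-11 on spectinomycin and 215, 219.6 and 209 TPM in nac103-11 on control medium, with 5 of 8 higher and none lower.

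Of 31 tested members, 4 differed from WT in their response, all more negative in nac103-11. That share is near the 11.8% of all genes tested (6.2% higher and 5.56% lower). Without WT control replicate 2, 7 members differed, CHLM (-0.29, adjusted p = 0.00561), CRD1 (-0.28, adjusted p = 0.0241) and CAO (-0.36, adjusted p = 0.0245) being added. HO1 had 101, 105 and 99.9 CPM in nac103-11 on spectinomycin and 127, 134 and 138 CPM in nac103-11 on control medium. It fell in nac103-11 (log2 fold change -0.38 ± 0.051, adjusted p = 3.08e-08), which set it apart from WT by -0.45 ± 0.074, adjusted p = 1.57e-05. HEMA1 had 67.2, 66.5 and 72.6 CPM in nac103-11 on spectinomycin and 87.3, 85.5 and 83.1 CPM in nac103-11 on control medium (difference -0.28 ± 0.078, adjusted p = 0.0114). FLU had 39.2, 40.8 and 38.5 CPM in nac103-11 on spectinomycin and 49.6, 45.7 and 43.7 CPM in nac103-11 on control medium, against 40.0, 39.4 and 36.2 CPM in WT on spectinomycin and 38.0, 37.0 and 33.6 CPM in WT on control medium (difference -0.31 ± 0.087, adjusted p = 0.0118). HEMB1 had 71.1, 66.6 and 71.0 CPM in nac103-11 on spectinomycin and 88.9, 87.2 and 84.5 CPM in nac103-11 on control medium (difference -0.20 ± 0.068, adjusted p = 0.0411). For HO1 and HEMA1 all treated nac103-11 libraries lay below all untreated ones. HO1 alone kept its call in all that was run. The others lost it on leaving out single libraries: HEMA1 without WT spectinomycin replicate 3 (adjusted p = 0.0562) or nac103-11 spectinomycin replicate 1 (adjusted p = 0.061); HEMB1 without WT control replicate 1 or 3 or nac103-11 control replicate 1 or 2 or WT spectinomycin replicate 1 or 2 or nac103-11 spectinomycin replicate 1 or 2 (adjusted p between 0.0579 and 0.134); FLU without WT control replicate 3 (adjusted p = 0.0516) or nac103-11 control replicate 1 (adjusted p = 0.0573).

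In NAC103-OX no member was called on spectinomycin, beside 5.06% of all genes tested (2.24% higher and 2.82% lower). By edgeR 2 of 31 had an unadjusted p under 0.05, the smallest adjusted p was 0.1, and DESeq2 also called 0. Log2 fold changes of the members lay between -0.26 (PORB) and 0.32 (GUN4). HEMA2 had 20.7, 20.3 and 21.8 CPM in NAC103-OX on spectinomycin and 20.6, 19.9 and 19.7 CPM in NAC103-OX on control medium, with a 95% interval of -0.11 to 0.23 for the log2 fold change. FC1 had 62.4, 65.0 and 67.2 CPM in NAC103-OX on spectinomycin and 59.3, 65.0 and 64.9 CPM in NAC103-OX on control medium (95% interval -0.066 to 0.15). On both media these genes stood near the level of WT on spectinomycin. PORB had 12.6, 11.2 and 12.3 CPM in NAC103-OX on spectinomycin and 14.2, 13.9 and 15.4 CPM in NAC103-OX on control medium (95% interval -0.46 to -0.070). CHLH had 60.4, 59.0 and 57.1 CPM in NAC103-OX on spectinomycin and 56.9, 54.5 and 55.3 CPM in NAC103-OX on control medium (95% interval -0.022 to 0.19). For each of these 4 genes the interval did not reach the fold change measured in WT.

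The difference from the WT response was called for 12 members, 5 more positive and 7 more negative, beside 31.6% of all genes tested (16.4% higher and 15.1% lower). Without WT control replicate 2 it was called for 16, 5 more positive and 11 more negative, which added CHLI2, CHLM, CHLD and GSA2. With raw library totals it was called for 4 more positive and 13 more negative. The more positive genes were HEMA2 (1.10 ± 0.11, adjusted p = 7.29e-11), FC1 (0.86 ± 0.074, adjusted p = 6.7e-13), PPOX2 (0.41 ± 0.090, adjusted p = 0.000337), HEMC (0.31 ± 0.073, adjusted p = 0.000864) and GSA1 (0.23 ± 0.079, adjusted p = 0.0231), from the trunk and the heme branch. With all libraries, the more negative genes were all of the chlorophyll branch, and PORB differed by -1.42 ± 0.14, adjusted p = 6.03e-11 (-1.64 without WT control replicate 2). PORC (-1.13 ± 0.42, -1.78 without that library), CAO (-0.74 ± 0.11), CHLG (-0.67 ± 0.11), CHLI1 (-0.63 ± 0.10), CRD1 (-0.61 ± 0.098) and CHLH (-0.58 ± 0.076) made up the rest. CAO had 21.0, 23.3 and 23.1 CPM in NAC103-OX on spectinomycin and 24.6, 24.5 and 23.0 CPM in NAC103-OX on control medium. CHLG had 25.4, 29.6 and 26.4 CPM in NAC103-OX on spectinomycin and 26.8, 27.8 and 27.9 CPM in NAC103-OX on control medium. CHLI1 had 40.8, 40.6 and 39.4 CPM in NAC103-OX on spectinomycin and 42.1, 39.6 and 36.5 CPM in NAC103-OX on control medium. Treated and untreated libraries overlapped for CAO, CHLG and CHLI1. Calls lost without 1 library were GSA1 without NAC103-OX control replicate 3 or WT spectinomycin replicate 2 or NAC103-OX spectinomycin replicate 2 (adjusted p between 0.064 and 0.0707); PORC without WT control replicate 1 or 3 or NAC103-OX control replicate 2 or 3 or WT spectinomycin replicate 1 or 2 or NAC103-OX spectinomycin replicate 1 or 3 (adjusted p between 0.0599 and 0.135). The green leaf markers summed to 343, 337 and 364 TPM on spectinomycin and 366, 375 and 366 TPM on control medium in NAC103-OX.

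Across the 4 genotypes, each with its own control libraries, 5 members were higher on spectinomycin in 3 genotypes, namely CHLI1, CHLH, CRD1, PORB and CAO, and in each case the exception was NAC103-OX. PPOX2 was lower in the same 3 genotypes. The gun1-101 calls of PPOX2, CHLI1, CRD1, PORB and CAO were each lost on leaving out single libraries, whereas that of CHLH was kept. HEMA2, GSA1, HEMB1 and FC1 were lower in 2, nac103-11 and WT. No member was called in opposite directions in different genotypes, and 9 of 31 were called in none. How often genes at large showed these patterns was not counted. With the WT response taken without WT control replicate 2, HEMB1 was lower in nac103-11 only and 7 members were called in no genotype.

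Genotypes were then compared on the same medium. The comparisons on control medium share the WT control libraries with the WT response, so their values stand side by side and no likeness between them was tested. In gun1-101 on control medium 15 members were called against WT, 14 higher and 1 lower, beside 40.5% of all genes tested (24.7% higher and 15.8% lower). Without WT control replicate 2, 16 were higher and 0 lower, GUN4 (0.80, adjusted p = 0.0447) and PORC (1.19, adjusted p = 0.024) being added and GSA2 lost (-0.11, adjusted p = 0.436). Raw library totals, which moved the median of all genes by -0.19 in this comparison, gave 7 higher and 8 lower. The trunk was the branch with most calls, 8 of 12 higher and 1 lower. HEMA2 (log2 fold change 1.09 ± 0.065, adjusted p = 2.62e-18), HEMB1 (0.60 ± 0.048, adjusted p = 1.65e-14), GSA1 (0.54 ± 0.054, adjusted p = 3.08e-11), PPOX2 (0.44 ± 0.061, adjusted p = 7.57e-08) and HEMA1 (0.33 ± 0.057, adjusted p = 8.4e-06) were higher in the trunk. FC1 was higher in the heme branch (0.61 ± 0.049, adjusted p = 2.93e-14). These 6 genes were higher under raw totals as well, whereas HEMF1, called higher with TMM (0.14 ± 0.059, adjusted p = 0.0486), turned to -0.046. With TMM, HO1 and, in the chlorophyll branch, PORB, CRD1, CHLM and CAO were also called higher. Without WT control replicate 2 the log2 fold change was 0.68 for PORB, 0.45 for CRD1, 0.35 for CHLM, 0.31 for CAO and 0.28 for HO1. On leaving out single libraries, calls were lost for GSA2 without WT control replicate 1 or 2 or gun1-101 control replicate 1 or 2 (adjusted p between 0.0569 and 0.436); HEMD without WT control replicate 1 or 3 or gun1-101 control replicate 2 or 3 (adjusted p between 0.0813 and 0.122); HEMF1 without WT control replicate 1 or 3 or gun1-101 control replicate 1, 2 or 3 (adjusted p between 0.0532 and 0.187); CAO without WT control replicate 1 or 3 or gun1-101 control replicate 2 or 3 (adjusted p between 0.105 and 0.181). Green leaf markers were higher in gun1-101 for 7 of 8 and lower for none on control medium, and their part in these results was not tested.

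On spectinomycin, 17 of 31 tested members were called between gun1-101 and WT, 9 higher and 8 lower. Beside them stood 57% of all genes tested (27.7% higher and 29.3% lower), so members were called no more often than genes at large. Raw library totals, with a median shift of -0.226, gave 8 higher and 18 lower. The trunk and the chlorophyll branch went apart, with 7 higher and 1 lower of 12 in the trunk, and none higher and 6 lower of 12 in the chlorophyll branch. HEMA2 averaged 82.6 ± 2.89 CPM in gun1-101 and 20.8 ± 2.56 CPM in WT (SD, n = 3 each; log2 fold change 1.99 ± 0.071, adjusted p = 8.97e-27). FC1 averaged 183 ± 4.99 CPM in gun1-101 and 62.7 ± 2.66 CPM in WT (log2 fold change 1.55 ± 0.051, adjusted p = 2.91e-28). Among the 31 tested members these were the largest differences from WT, by the fitted value, in any genotype on that medium. In the chlorophyll branch PORC (-0.97 ± 0.32, adjusted p = 0.00902), DVR (-0.62 ± 0.24, adjusted p = 0.0246), CHLG (-0.52 ± 0.079, adjusted p = 3.19e-07), CHLI1 (-0.40 ± 0.076, adjusted p = 1.5e-05), PORB (-0.30 ± 0.097, adjusted p = 0.00877) and CHLH (-0.17 ± 0.054, adjusted p = 0.00689) were lower in gun1-101. GSA2 (log2 fold change -0.36 ± 0.096, adjusted p = 0.00137) and GSA1 (0.71 ± 0.055, adjusted p = 5.51e-15) were again called in opposite directions. Among these calls, those lost on leaving out 1 library were HEMD without WT spectinomycin replicate 1 (adjusted p = 0.0601) or gun1-101 spectinomycin replicate 1 (adjusted p = 0.0512); DVR without WT spectinomycin replicate 1 or gun1-101 spectinomycin replicate 2 or 3 (adjusted p between 0.0592 and 0.0965).

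In nac103-11 on control medium 14 members were called against WT, 10 higher and 4 lower, beside 43.3% of all genes tested (23.2% higher and 20.1% lower). Without WT control replicate 2, 10 were higher and 2 lower, HEMD (0.39, adjusted p = 0.0122) being added and PPOX2 (0.13, adjusted p = 0.114) lost beside GUN4 and DVR. With raw library totals, whose median shift was -0.137, 7 were higher and 6 lower. HEMA1 (log2 fold change 0.76 ± 0.055, adjusted p = 2.48e-15), HO1 (0.74 ± 0.052, adjusted p = 1.13e-15) and HEMA2 (0.61 ± 0.067, adjusted p = 3.91e-10) were the clearest of the higher genes, and FLU was higher too (0.35 ± 0.062, adjusted p = 1.02e-05). Of the lower genes, PORB (-0.64 ± 0.14, adjusted p = 0.000133) and FC2 (-0.38 ± 0.10, adjusted p = 0.00271) kept their calls when single libraries were left out, PORB at -0.43 without WT control replicate 2. GUN4 (-0.99 ± 0.36, adjusted p = 0.0233) and DVR (-0.81 ± 0.28, adjusted p = 0.0157) did not: GUN4 without WT control replicate 2 or nac103-11 control replicate 1 or 3 (adjusted p between 0.0635 and 0.394) and DVR without WT control replicate 2 or nac103-11 control replicate 1 or 3 (adjusted p between 0.0668 and 0.115). On spectinomycin 12 were called, 9 higher and 3 lower, beside 26.6% of all genes tested (15.5% higher and 11.1% lower), and raw library totals gave 7 higher and 7 lower. HEMA2 (0.55 ± 0.077, adjusted p = 2.14e-07) and HEMA1 (0.48 ± 0.055, adjusted p = 1.73e-09) were higher and PORB (-0.62 ± 0.097, adjusted p = 2.03e-06) was lower there. PORB averaged 9.96 ± 0.307 CPM in nac103-11 and 15.4 ± 0.715 CPM in WT on spectinomycin. CHLG (-0.30 ± 0.075, adjusted p = 0.00173) and CAO (-0.21 ± 0.074, adjusted p = 0.0304) were the other lower genes on spectinomycin. CAO lost this call without WT spectinomycin replicate 1 or 3 or nac103-11 spectinomycin replicate 1 or 3 (adjusted p between 0.0588 and 0.149). The green leaf markers summed to 392, 424 and 394 TPM in nac103-11 and 545, 530.3 and 552 TPM in WT on spectinomycin, 2 of 8 being higher and 1 lower by the test, and their part in these results was not tested. On control medium PORB averaged 4.40 ± 0.172 CPM in nac103-11 and 6.83 ± 1.58 CPM in WT.

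On control medium NAC103-OX had higher levels of chlorophyll genes and lower levels of HEMA2 and FC1 than WT. In all, 16 members were called, 12 higher and 4 lower, beside 45.3% of all genes tested (22.8% higher and 22.6% lower). Without WT control replicate 2, 13 were higher and 4 lower, CHLM (0.16, adjusted p = 0.0304) being added. The chlorophyll branch held 8 higher genes of 12 and none lower, with a median log2 fold change of 0.60 beside 0.0030 over all genes. PORB (log2 fold change 1.07 ± 0.11, adjusted p = 2.11e-11), CHLI1 (0.84 ± 0.076, adjusted p = 1.24e-12), CHLH (0.78 ± 0.056, adjusted p = 8.36e-16), CAO (0.76 ± 0.078, adjusted p = 4.21e-11) and CHLG (0.65 ± 0.079, adjusted p = 4.39e-09) were higher. HEMA2 (-1.09 ± 0.076, adjusted p = 4.28e-16), FC1 (-0.81 ± 0.052, adjusted p = 2.08e-17), PPOX2 (-0.35 ± 0.063, adjusted p = 1.14e-05) and GSA1 (-0.22 ± 0.056, adjusted p = 0.0011) were lower. PORC, higher by the test (1.05 ± 0.33, adjusted p = 0.00773, 1.71 without WT control replicate 2), lost its call without WT control replicate 3 (adjusted p = 0.0621). HO1 was higher on both media, with log2 fold changes of 0.59 ± 0.052, adjusted p = 8.15e-13 on control medium and 0.45 ± 0.052, adjusted p = 7.87e-09 on spectinomycin. In sum, the green leaf markers came to 366, 375 and 366 TPM in NAC103-OX and 208, 473 and 212 TPM in WT on control medium, 2 of 8 being higher and 1 lower by the test.

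On spectinomycin, 9 members were called between NAC103-OX and WT, 8 higher and 1 lower, beside 16.8% of all genes tested (8.45% higher and 8.32% lower). With single libraries left out the count ran from 3 to 7, and it was 3 without NAC103-OX spectinomycin replicate 2 and 5 without WT spectinomycin replicate 3. HO1, HEMC (0.25 ± 0.051, adjusted p = 0.000412) and CHLH (0.20 ± 0.052, adjusted p = 0.00478) kept their calls under every alternative run. PORB, the 1 lower gene (-0.35 ± 0.094, adjusted p = 0.00736), was lost without NAC103-OX spectinomycin replicate 2 (adjusted p = 0.0552). HEMA2 averaged 20.9 ± 0.788 CPM in NAC103-OX and 20.8 ± 2.56 CPM in WT, and the log2 difference had a 95% interval of -0.15 to 0.17. For FC1 that interval was -0.057 to 0.16.

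**Figure D3:**
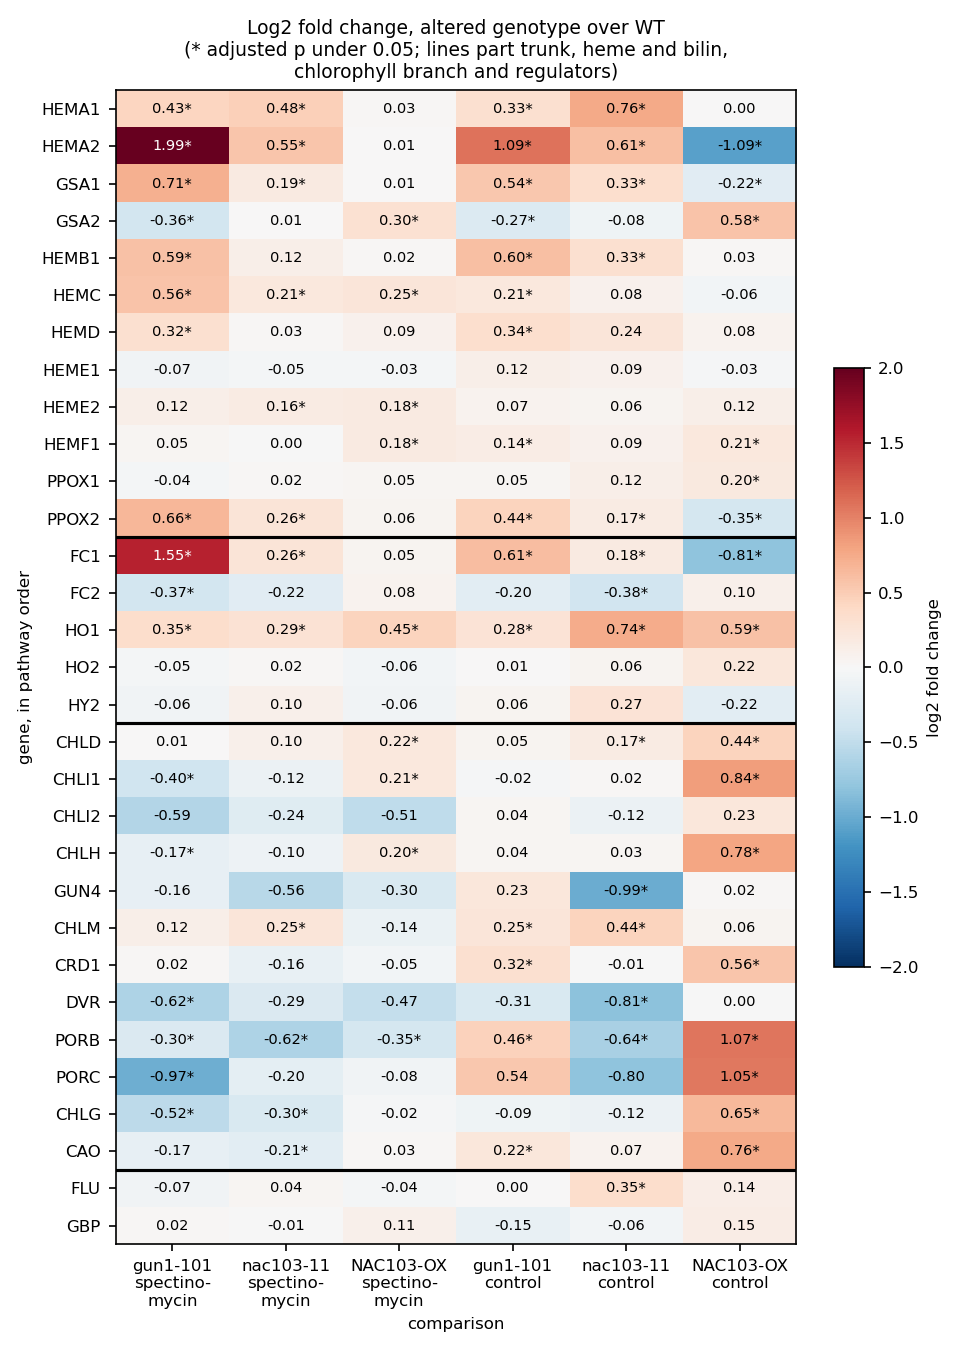
Log2 fold changes of the 31 tested genes (rows, in pathway order) in gun1-101, nac103-11 and NAC103-OX over WT, on spectinomycin (left 3 columns) and on control medium (right 3 columns), with an asterisk where the adjusted p was under 0.05. HEMA2 and FC1 are at 1.99 and 1.55 in gun1-101 on spectinomycin, and at -1.09 and -0.81 in NAC103-OX on control medium.

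Summed over its 13 genes, the chlorophyll branch had 279.9, 267 and 262 TPM in WT on spectinomycin and 171, 213 and 171 TPM in WT on control medium. WT control replicate 2 was the highest untreated library here too, and no untreated library reached a treated one. In NAC103-OX the sum was 268, 275 and 262 TPM on spectinomycin and 265, 271 and 261 TPM on control medium, ranges that overlapped each other and that of treated WT. In gun1-101 it was 222, 220.5 and 219 TPM on spectinomycin and 184, 188 and 184 TPM on control medium. In nac103-11 it was 249, 247 and 249.7 TPM on spectinomycin and 189, 189 and 184 TPM on control medium. The trunk summed to 435, 434 and 432 TPM in gun1-101 and 361, 357 and 359 TPM in WT on spectinomycin, and to 368, 387 and 354 TPM in WT on control medium. The heme and bilin branch summed to 242, 261 and 245 TPM in gun1-101 and 179, 167 and 169 TPM in WT on spectinomycin. On control medium the mean sum of this branch was 218.7 TPM in gun1-101, 240.2 TPM in nac103-11, 206.5 TPM in NAC103-OX and 189.3 TPM in WT. For the trunk, the means on control medium were 427.3, 411.7, 370.5 and 369.9 TPM in the same order. On spectinomycin nac103-11 and NAC103-OX averaged 193.8 and 209.3 TPM for the heme and bilin branch and 387.1 and 383.8 TPM for the trunk. With 3 libraries a group an exact permutation test on such a sum could not pass 0.05, so none is given. The TPM carry no TMM scaling, unlike the fitted fold changes. Raw library totals in place of TMM moved the median log2 fold change of all genes between gun1-101 and WT by -0.226 on spectinomycin and -0.19 on control medium. Differences of about that size between the sums of genotypes cannot be told apart from scaling.

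**Figure D4:**
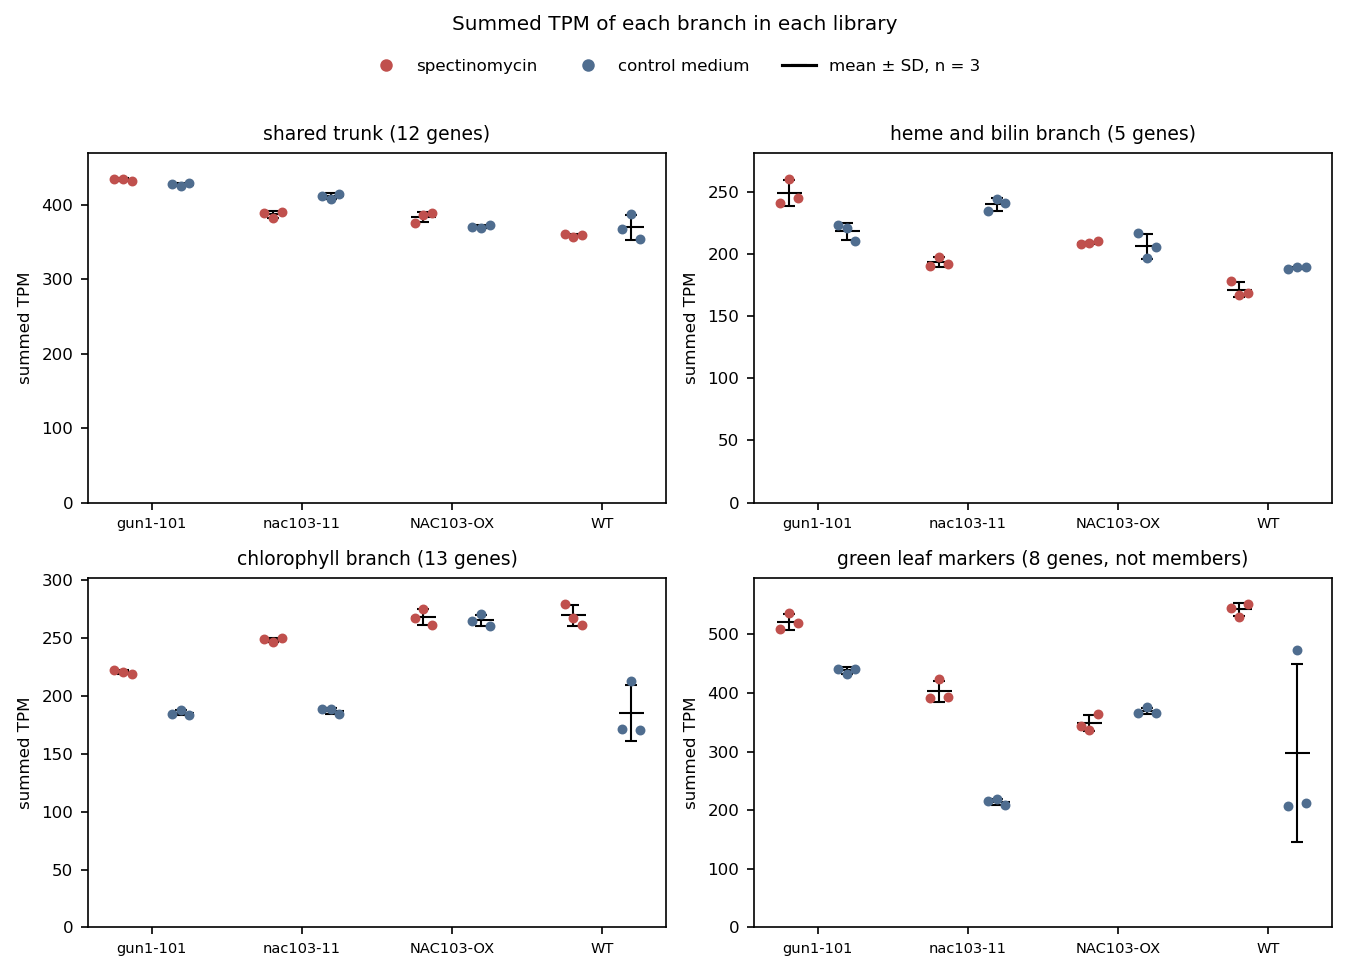
Summed TPM per library of the trunk, the heme and bilin branch, the chlorophyll branch and 8 green leaf markers that are no members (panels), with spectinomycin in red and control medium in blue for each genotype and black marks for the mean ± SD (n = 3). The chlorophyll branch lies between 261.7 and 279.9 TPM in WT on spectinomycin and between 170.6 and 212.9 TPM in WT on control medium, and WT control replicate 2 stands out in the leaf marker panel at 472.6 TPM.

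Opposite or unequal changes of isozymes shifted the make-up of several steps. HEMA1 held 69.0% ± 3.8 in WT on spectinomycin and 52.9% ± 2.4 on control medium of the TPM of both glutamyl-tRNA reductase genes (SD, n = 3 each, as for the other shares). In NAC103-OX it held 69.4% ± 0.32 on spectinomycin and 70.4% ± 0.81 on control medium. In nac103-11 it held 68.1% ± 0.67 on spectinomycin and 55.4% ± 0.31 on control medium. In gun1-101 HEMA2 was the more abundant of the pair on both media, the share of HEMA1 being 43.2% ± 0.45 on spectinomycin and 39.6% ± 1.9 on control medium. FC1 made up most of the ferrochelatase transcript in every group. Its share was lowest in NAC103-OX, at 83.2% ± 0.25 on spectinomycin and 84.5% ± 0.21 on control medium, and in WT on spectinomycin, at 83.4% ± 1, against 91.1% ± 0.92 in WT on control medium. In gun1-101 it was 95% ± 0.5 on spectinomycin and 94.7% ± 0.55 on control medium. GSA1 held 73.5% ± 0.9 in WT on spectinomycin and 80.3% ± 2.9 on control medium, and PPOX1 held 65.3% ± 1.6 in WT on spectinomycin and 57.6% ± 2.4 on control medium. For HO1 and HO2, CHLI1 and CHLI2, and PORB and PORC the group means of the larger form stayed within 88.5% and 97.3%. How the authors' counting divided reads between related isozymes is not given in the sources used here, so small shares are uncertain.

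**Figure D5:**
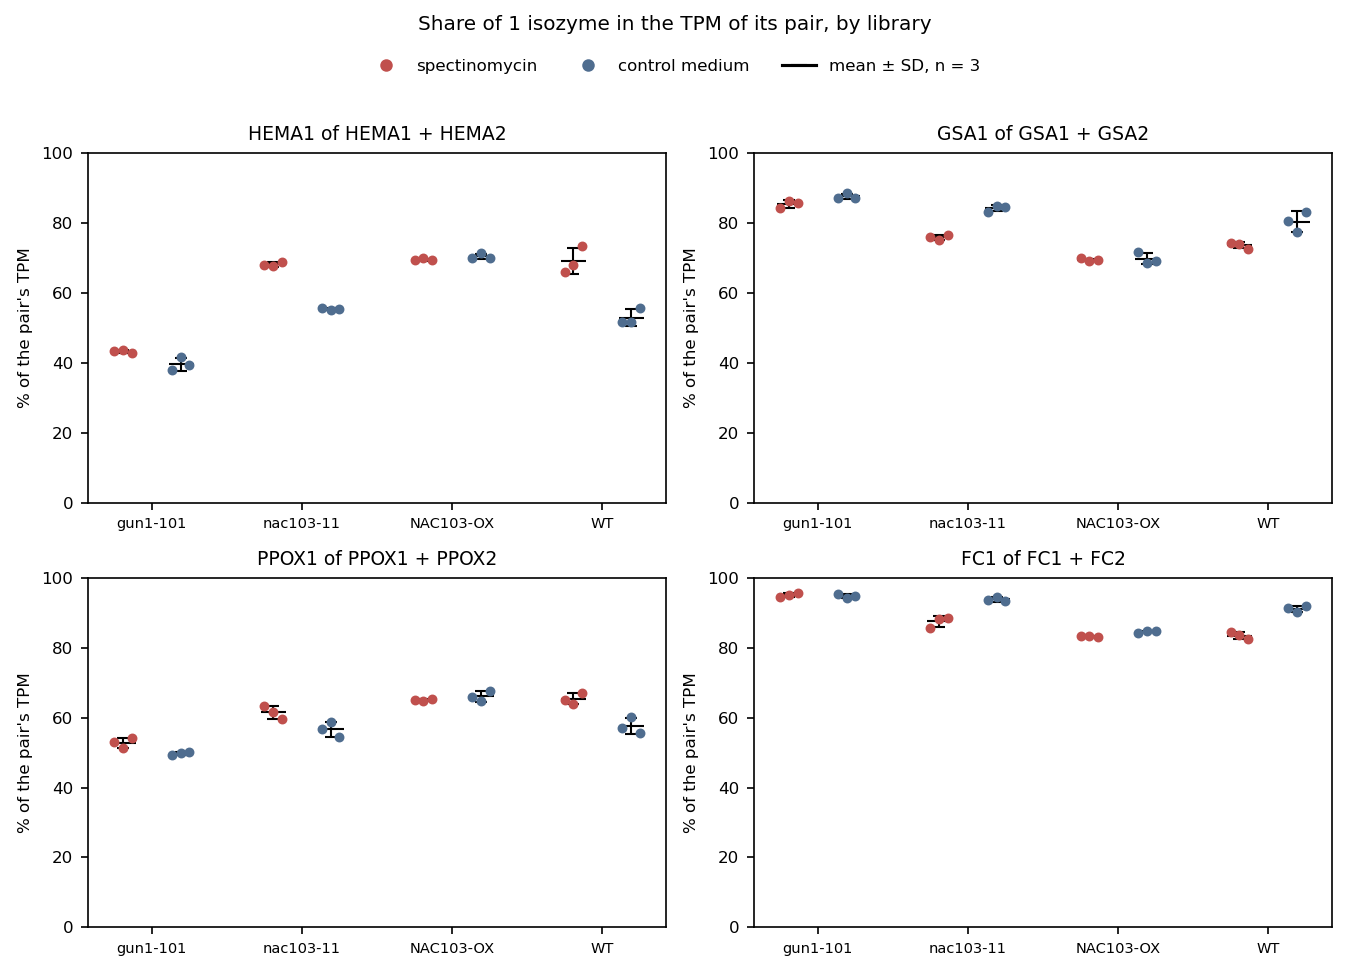
Share of HEMA1, GSA1, PPOX1 and FC1 in the TPM of its isozyme pair (panels, axis from 0 to 100%) in each library, with spectinomycin in red and control medium in blue for each genotype and black marks for the mean ± SD (n = 3). HEMA1 averages 69.0% in WT on spectinomycin and 52.9% in WT on control medium, and lies between 37.9% and 43.7% in gun1-101.

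Pathway genes outside the 32 members were described from lists of 42 genes. Of 4 genes for siroheme synthesis or for enzymes that carry siroheme, 3 fell in WT on spectinomycin, beside 20.4% of all genes tested. The nitrite reductase NIR1 (log2 fold change -1.17 ± 0.056, adjusted p = 1.09e-21) and the sulfite reductase SIR (-0.52 ± 0.041, adjusted p = 3.26e-14) carry siroheme. Siroheme synthesis leaves the trunk before heme and chlorophyll. Of its genes, the uroporphyrinogen methyltransferase UPM1 fell (-0.37 ± 0.051, adjusted p = 1.01e-07) and SIRB was not called. NIR1 had 41.1, 40.0 and 38.0 CPM in WT on spectinomycin and 89.4, 85.0 and 93.3 CPM in WT on control medium, far apart. In gun1-101 its response was -0.051 ± 0.059 and in NAC103-OX -0.037 ± 0.065, neither called, and both differed from the WT response (differences 1.12 ± 0.082, adjusted p = 4.25e-15, and 1.13 ± 0.086, adjusted p = 1.28e-14). Of 7 further genes of chlorophyll synthesis and the chlorophyll cycle, 5 rose in WT and none fell, beside 20.1% higher and 20.4% lower of all genes tested. Without WT control replicate 2, 4 rose, LCAA being lost (adjusted p = 0.105). LCAA was also lost without WT control replicate 1 or WT spectinomycin replicate 2 or 3 (adjusted p between 0.0686 and 0.248). NYC1 was lost without WT control replicate 1 or 3 or WT spectinomycin replicate 1, 2 or 3 (adjusted p between 0.0502 and 0.257). NOL was lost without WT control replicate 1 (adjusted p = 0.182) or WT spectinomycin replicate 2 (adjusted p = 0.197). The geranylgeranyl reductase CHLP, which makes the phytol tail, had 115, 102 and 104 CPM in WT on spectinomycin and 44.0, 62.3 and 50.4 CPM in WT on control medium (fitted log2 fold change 1.03 ± 0.091, adjusted p = 4.73e-09), and LIL3.2 rose by 0.51 ± 0.076 on the log2 scale. In NAC103-OX on control medium all 7 were higher than in WT, CHLP by 1.08 ± 0.091, beside 22.8% of all genes tested. LIL3.1 lost this call without WT control replicate 3 (adjusted p = 0.0693) or NAC103-OX control replicate 3 (adjusted p = 0.156).

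Among 6 tested genes of chlorophyll breakdown, SGR1, which removes magnesium, and RCCR were higher in WT on spectinomycin (log2 fold changes 0.50 ± 0.11, adjusted p = 0.000353, and 0.31 ± 0.089, adjusted p = 0.00401). In nac103-11, by contrast, PAO and PPH were lower on spectinomycin (-0.47 ± 0.096, adjusted p = 7.18e-05, and -0.35 ± 0.065, adjusted p = 1.89e-05), and PPH differed from the WT response (difference -0.43 ± 0.094, adjusted p = 0.00113). Of 7 tested transcription factors, 4 rose in WT and none fell, beside 20.1% higher and 20.4% lower of all genes tested. FAR1 was lost without WT control replicate 1 or 3 or WT spectinomycin replicate 2 (adjusted p between 0.0651 and 0.106). PIF3 was lost without WT control replicate 1 (adjusted p = 0.077) or WT spectinomycin replicate 2 (adjusted p = 0.0512). PIF1, a repressor of tetrapyrrole genes in the dark, had 15.8, 15.04 and 16.4 CPM in WT on spectinomycin and 8.24, 11.3 and 10.2 CPM in WT on control medium (fitted log2 fold change 0.67 ± 0.10, adjusted p = 1.07e-06), and GLK2, an activator of greening genes, rose by 0.42 ± 0.084. PIF1 also rose in nac103-11 (0.88 ± 0.12, adjusted p = 2.14e-08). GLK1, GNC and CGA1 were too low to be tested. Of the 5 phytochromes, which carry the bilin made by HO1 and HY2, PHYA (0.23 ± 0.047, adjusted p = 0.000109) and PHYB (0.13 ± 0.048, adjusted p = 0.0255) were higher in WT on spectinomycin and PHYD lower (-0.24 ± 0.070, adjusted p = 0.00475), PHYD only with WT control replicate 2 (adjusted p = 0.056 without it). PHYB was lost without WT control replicate 1 or 3 or WT spectinomycin replicate 1 (adjusted p between 0.0577 and 0.124). Of 4 genes for tetrapyrrole binding and enzyme stability, 3 were higher in WT on spectinomycin. CPSRP43, a chaperone that protects glutamyl-tRNA reductase, was among them (0.45 ± 0.087, adjusted p = 5.02e-05), as was HBP5 (0.40 ± 0.15, adjusted p = 0.0322). HBP5 was lost without WT control replicate 1 or 3 or WT spectinomycin replicate 3 (adjusted p between 0.0693 and 0.243). The last was TSPO (1.10 ± 0.35, adjusted p = 0.0103, 0.0926 without WT control replicate 1). This gene, a heme-binding membrane protein, had 3.54, 3.17 and 3.37 CPM in NAC103-OX and 0.244, 0.516 and 0.499 CPM in WT without the drug, a log2 difference of 2.98 ± 0.27, adjusted p = 1.14e-12. Of the paralogues, HEMF2 was not called in any of the 13 comparisons with all libraries (in the gun1-101 response minus that of WT, -0.42, adjusted p = 0.0318 without WT control replicate 2), and HEMA3, HEMB2 and HO3 were too low to be tested.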

How the data were processed

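Poly(A) RNA of root tips was measured in 24 libraries. The authors deposited expected counts per gene for each library, per the file headers, and RSEM 1.3.1 is named in the submitters' processing notes, with no role given. They also deposited TPM and FPKM values (both scaled to length and library size), per the file headers. The aligner, the annotation, the genome build and whether counting used strand are not given in the sources used here. The table holds 24497 genes, and 56 further per-sample columns were not used.

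Expected counts, of which 98.3% were whole as deposited by the authors, were rounded. Genes were kept by edgeR's filterByExpr (min.count 10, min.total.count 15), which left 19567 genes and dropped 4930. All 24 libraries entered 1 fit with 1 mean per group (edgeR 4.0.16 quasi-likelihood test, robust, with TMM scaling, limma 3.58.1, R 4.3.3). The common biological coefficient of variation was 0.0466. In each of 13 comparisons p-values were adjusted over all genes tested by Benjamini-Hochberg, and an adjusted p under 0.05 is a call. CPM values are TMM-scaled, and TPM served for levels between genes, summed levels and isozyme shares. The fit was tested on simulated data first. Alternatives were RLE size factors, raw totals, DESeq2 1.42.0, no filter, the groups of the contrast alone, a replicate block, each library left out in turn, and FPKM for the order of levels.

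The members and lists were chosen with earlier results of these data known. All members could be named. Values in every library were given for up to 4 members per list with the smallest p in the WT response, for isozyme pairs and for members whose response differed from that of WT. Of each pathway list, up to 3 called genes with the smallest p were to be given values. The labels call the replicates biological and do not say that they are separate batches of seedlings, so p-values measure the spread between these samples. The batch label has 1 value per group, so batch and group cannot be told apart. HO4, GL1 and protein sequences were not analysed here.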

Additional observations from a re-analysis of the deposited data

Results flagged for a closer look

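The results listed here are members whose response to spectinomycin differed from the WT response by a test of the difference itself (edgeR's quasi-likelihood test, adjusted over all genes tested). All 3 comparisons share the WT libraries on both media, so their values stand side by side and are not independent. Each value is the log2 response of the genotype minus that of WT.

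In gun1-101, HEMA2 (0.90), FC1 (0.93) and HEMC (0.35) had a more positive response than in WT. The response of PORC (-1.51), PORB (-0.76), CHLG (-0.43), CAO (-0.39), CHLI1 (-0.38) and CRD1 (-0.29) was more negative than in WT. In nac103-11, HO1 (-0.45), FLU (-0.31), HEMA1 (-0.28) and HEMB1 (-0.20) had a more negative response than in WT.

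In NAC103-OX, HEMA2 (1.10), FC1 (0.86), PPOX2 (0.41), HEMC (0.31) and GSA1 (0.23) had a more positive response than in WT. That of PORB (-1.42), PORC (-1.13), CAO (-0.74), CHLG (-0.67), CHLI1 (-0.63), CRD1 (-0.61) and CHLH (-0.58) was more negative than in WT. WT control replicate 2, the library with the highest sum of leaf markers among the WT controls, enters all 25 values.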

How the results depend on the processing

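With raw library totals, 11 members were called in the gun1-101 response (6 with TMM), 1 in the nac103-11 response minus the WT response (4 with TMM) and 26 between gun1-101 and WT on spectinomycin (17 with TMM). Fitting only the groups of the contrast gave 10 in the gun1-101 response. With single libraries left out, the gun1-101 response ran from 3 to 5 called members, the nac103-11 response minus the WT response from 2 to 7, and NAC103-OX against WT on spectinomycin from 3 to 7. In the gun1-101 response the 3 came without gun1-101 control replicate 3 or gun1-101 spectinomycin replicate 1. In the nac103-11 response minus the WT response the 7 came without WT control replicate 2, and the 2 without WT control replicate 3, nac103-11 control replicate 1 or nac103-11 spectinomycin replicate 1. In the other comparisons, the count of members called in either direction stayed within 1.5 times the reported count under every alternative. Counts in 1 direction moved more with raw totals: 18 higher (10 with TMM) in the WT response, 13 more negative (7) in the NAC103-OX response minus the WT response, 7 higher and 8 lower (14 and 1) between gun1-101 and WT on control medium, and 7 lower (3) between nac103-11 and WT on spectinomycin.

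Changes of sign under raw totals were counted only for fold changes called with TMM or with raw totals. Raw totals turned the sign of 8 of these between gun1-101 and WT, of which HEMF1 on control medium was the 1 called with TMM. In the comparisons of gun1-101 with WT, raw totals moved the median of all genes by -0.19 on control medium and -0.226 on spectinomycin. On control medium HEMF1 came to -0.046, PPOX1 to -0.144, CHLH to -0.153 and FLU to -0.19. On spectinomycin HEMF1 came to -0.179, CHLD to -0.221, CRD1 to -0.201 and GBP to -0.203. The cause was not tested.

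Calls held in every alternative and with every left-out library for 1 of 6 members called in the gun1-101 response, 18 of 19 in the nac103-11 response and 12 of 16 in the WT response. Against the WT response they held for 6 of 9 in gun1-101, 1 of 4 in nac103-11 and 10 of 12 in NAC103-OX. Between genotypes on spectinomycin they held for 14 of 17 in gun1-101, 9 of 12 in nac103-11 and 3 of 9 in NAC103-OX, and on control medium for 7 of 15, 9 of 14 and 15 of 16 in the same genotypes.

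Same-numbered replicates showed little shared deviation (correlations of deviations between -0.063 and 0.069, with 0 pairs over 0.1), and the main fit used no pairing. Such correlations cannot show whether same-numbered libraries were grown or handled together. With the replicate block, 7 members were called in the gun1-101 response, 20 in the nac103-11 response, 0 in the NAC103-OX response and 16 in the WT response.

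Depth limits PORA, which was not tested, and PORC and CHLI2, whose levels were the lowest of the tested members.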
